A study of Homo sapiens with 16 samples.

Results

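The anoctamins are membrane proteins with a shared fold that use calcium in 1 of 2 ways: some pass chloride ions, and others move phospholipids between the leaflets of a membrane. The 7 anoctamin genes described here, ANO1, ANO5, ANO6, ANO7, ANO8, ANO9 and ANO10, were taken by symbol from count tables of 26364 genes, and the other 3 family genes in those tables, ANO2, ANO3 and ANO4, are given beside them. The set was chosen by the late rise of ANO1 counts after estrogen in Ishikawa cells and then by membership of the family, so for ANO1 the Ishikawa values are given as a description with no test, and the questions are whether the paralogs rose with it and what the family did in T-47D cells. Bulk RNA-seq was collected from 2 established human lines, Ishikawa, from an endometrial adenocarcinoma, and T-47D, from a ductal carcinoma of the breast. The labels name no genetic change in either line. Per the labels, both were kept in hormone-deprived media for 3 days (the study's methods give another number of days). They then received 10 nM 17β-estradiol (E2) for 2, 4 or 8 h, or no E2 (0 h). The study's methods describe the 0-h cells as vehicle treated. Each time point in each line had 2 replicates, which makes 16 libraries, and nothing in the sources used here says whether replicates were separate cultures, so p-values measure only the spread between these libraries.

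ANO1 is a calcium-activated chloride channel that secretory epithelia use to release chloride and fluid, and it is a gene within a segment of chromosome 11 that is amplified in some carcinomas. ANO2 is also a calcium-activated chloride channel, known from sensory neurons. ANO6 is a calcium-activated phospholipid scramblase, which exposes phosphatidylserine on the cell surface, and ANO9 has also been described as a scramblase. ANO5 is best known from skeletal muscle, ANO7 from prostate epithelium, ANO8 from contacts between the endoplasmic reticulum and the plasma membrane, and ANO10 from hereditary ataxia. E2 acts through estrogen receptors, which bind estrogen response elements, a palindrome whose arms read GGTCA.

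On GRCh37, the genome build of the reference and the same assembly as the hg19 build the authors aligned to, ANO1 lies on the plus strand at chr11:69832013-70035636. Its canonical GENCODE transcript has 26 exons and starts at base 69924423, and other annotated transcripts start at base 69832013, and the counts, given per gene, do not separate these starts. ANO6 lies at chr12:45609770-45876063 on the plus strand and ANO9 at chr11:417933-442011 on the minus strand. The 250 bases before the outer ANO1 start and before the canonical ANO6 start are shown, for the gene that rose in Ishikawa cells and a paralog that fell in both lines, and letters in capitals are matches, on either strand, to GGGCGG, a core of SP1 sites.
ANO1, outer start, chr11:69831763-69832012, plus strand: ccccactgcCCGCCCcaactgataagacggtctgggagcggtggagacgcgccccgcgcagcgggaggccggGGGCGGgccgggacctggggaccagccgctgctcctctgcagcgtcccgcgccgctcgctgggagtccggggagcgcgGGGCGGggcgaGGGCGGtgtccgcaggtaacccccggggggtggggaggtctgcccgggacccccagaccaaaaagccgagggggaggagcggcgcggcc
ANO6, chr12:45609628-45609877, plus strand: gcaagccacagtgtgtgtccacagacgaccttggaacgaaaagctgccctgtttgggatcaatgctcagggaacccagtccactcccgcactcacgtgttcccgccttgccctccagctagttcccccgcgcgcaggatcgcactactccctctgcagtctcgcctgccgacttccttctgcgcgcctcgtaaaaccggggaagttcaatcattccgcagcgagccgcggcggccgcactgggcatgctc
The full palindrome (GGTCA, any 3 bases, TGACC) was in neither window and in 0.035% of the windows before 19852 gene starts. The arm GGTCA alone, which 30.7% of all windows held, was in neither window. GGGCGG, which 59.2% of all windows held, had 4 matches before the outer ANO1 start and 0 before ANO6. Bases G and C made up 78.0% of the ANO1 window and 62.4% of the ANO6 window, against a median of 63.2% over all windows. The part of this base content in the number of matches was not tested. TGANTCA, the AP-1 motif (4.70% of windows), and TATAAA (9.26%) had no match in either window. These are matches of letters in the reference and no measure of binding.

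Totals per library ran from 41177912 to 58918642 counts in Ishikawa cells and from 41223813 to 64148903 in T-47D cells, and levels are given as CPM, counts scaled to a common library total by the TMM method over all 16 libraries. All 4 epithelial markers (EPCAM, CDH1, KRT8, KRT18) were above 1 CPM in every library of both lines. The 4 breast luminal markers summed to 6446 to 7317 CPM in T-47D cells and 210 to 244 CPM in Ishikawa cells, where GATA3 had 0 to 4 counts. The 4 endometrial markers summed to 338 to 458 CPM in Ishikawa cells and to 0.429 to 0.970 CPM in T-47D cells, where SOX17 and EMX2 were at 0. The E2 targets GREB1 and PGR rose late in both lines, by 1.63 and 3.71 on the log2 scale in Ishikawa cells and by 2.08 and 1.02 in T-47D cells. The Ishikawa 4-h and 8-h libraries did not separate by their labels: edgeR called 2 of 15787 genes between them (554 at an unadjusted p under 0.05, and 2 called by DESeq2), against 533 of 15594 in T-47D cells. For this reason the mean of 4 h and 8 h against 0 h, called late here, was the main contrast in both lines.

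In Ishikawa cells ANO1 rose in steps from a low level without E2. The 0-h libraries held 5.66 and 5.87 CPM (266 and 281 counts), the 2-h libraries 11.8 and 11.01 CPM, the 4-h libraries 62.6 and 35.8 CPM, and the 8-h libraries 35.2 and 64.2 CPM. Both 2-h libraries were above both 0-h libraries, as for 22.9% of all genes, and all 4 late libraries were above both 0-h libraries, as for 20.7%. Every late library was also above both 2-h libraries, a separation for which no share of all genes was counted. The late libraries formed a high pair, 4-h replicate 1 with 8-h replicate 2, and a low pair, 4-h replicate 2 with 8-h replicate 1, so that the 4-h and 8-h ranges overlapped almost fully. The late mean was 49.5 ± 16.1 CPM (SD, n = 4), 8.58-fold the 0-h mean of 5.77 ± 0.148 CPM (SD, n = 2), and the 2-h mean was 1.98-fold that mean. The fitted log2 fold change was 3.10 (SE 0.25) late and 0.99 (SE 0.28) at 2 h, and with any 1 library left out it stayed between 2.84 and 3.29 late and between 0.94 and 1.05 at 2 h. In bulk RNA, more cells with ANO1 and more ANO1 RNA per cell cannot be told apart. Whether the counting used strand is not given in the sources used here. ANO1-AS1, on the opposite strand, overlaps 10.3% of the exonic bases of ANO1, so its reads could be counted with it, and is not a feature of the count tables, while ANO1-AS2 had 0 to 2 counts per Ishikawa library and no count in T-47D cells.

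In T-47D cells ANO1 was flat. Its 8 libraries lay between 21.6 and 24.5 CPM, a range of 1.14-fold, with 24.3 and 23.1 CPM at 0 h, 24.5 and 24.5 CPM at 2 h, 24.5 and 23.2 CPM at 4 h, and 23.5 and 21.6 CPM at 8 h. The late and 0-h libraries overlapped. The late log2 fold change was -0.03 (SE 0.06), which did not pass (edgeR quasi-likelihood test, adjusted p = 0.737), nor did the 2-h change of 0.04 (SE 0.07, edgeR adjusted p = 0.805). Without E2, ANO1 was higher in T-47D than in Ishikawa cells by 2.04 on the log2 scale (SE 0.24), and the late change in T-47D minus that in Ishikawa cells was -3.13 (SE 0.28). Both values use the Ishikawa libraries that singled ANO1 out and so carry no test. The late Ishikawa libraries, at 35.2 to 64.2 CPM, all lay above the T-47D range.

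**Figure D1:**
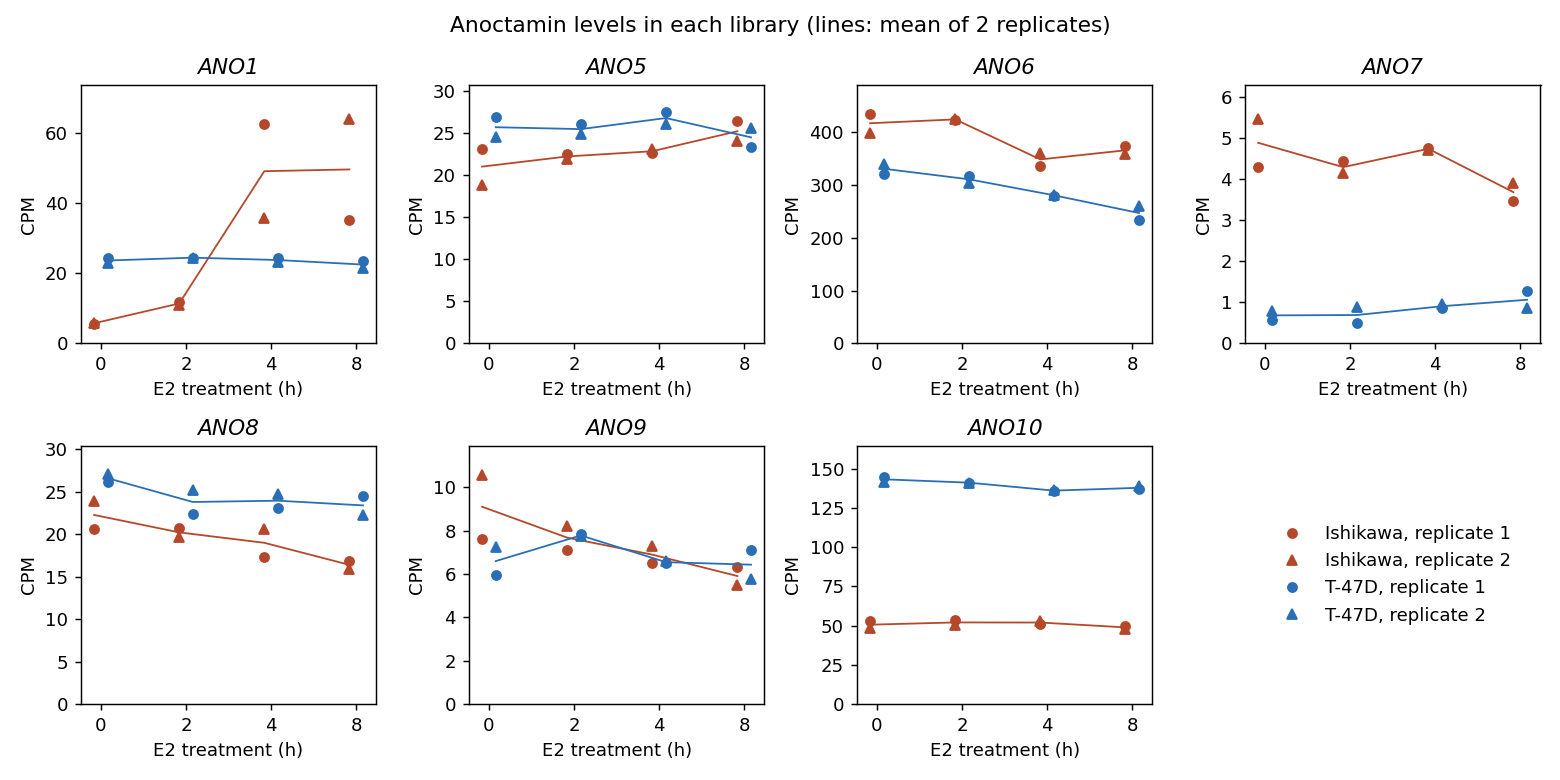
Level of each of the 7 anoctamin genes in CPM (linear axes from 0) against hours of E2, with 1 point per library, circles for replicate 1, triangles for replicate 2, and lines through the mean of 2 replicates. ANO1 in Ishikawa cells rises from 5.77 to a late mean of 49.5 CPM while its T-47D libraries stay between 21.6 and 24.5 CPM, and no other panel shows a rise of that size.

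None of the 6 paralogs rose with ANO1 in Ishikawa cells. Late, 3 of the 6 passed the test and all 3 were lower, where 25.1% of all 15787 genes tested passed and 11.9% passed in the lower direction. The median late log2 fold change of the 6 was -0.22, against -0.00 for all genes. At 4 h alone only ANO6 passed, where 14.3% of all genes did, and at 8 h alone ANO6, ANO8 and ANO9 passed, where 22.1% did. Whether labels of the 4-h and 8-h libraries were exchanged was not tested, and the values for 4 h alone and 8 h alone hold only as far as those labels do. At 2 h, 0 of the 6 passed by edgeR (0 at an unadjusted p under 0.05, and 0 by DESeq2), where 4.35% of all genes did.

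ANO6, the scramblase, was the most abundant member and fell. Its Ishikawa libraries held 435 and 399 CPM at 0 h, 424 and 424 CPM at 2 h, 336 and 361 CPM at 4 h, and 373 and 358 CPM at 8 h. All 4 late libraries were below both 0-h libraries, as for 21.6% of all genes, and the 2-h libraries lay between the 0-h values. The late mean was 357 ± 15.5 CPM (SD, n = 4) against 417 ± 25.3 CPM (SD, n = 2), a log2 fold change of -0.22 (SE 0.05, edgeR quasi-likelihood test, adjusted p = 0.0052). Without 0-h replicate 1 the change was -0.16 and ANO6 no longer passed (edgeR adjusted p = 0.0521).

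ANO9, also described as a scramblase, was a low-abundance member with at most 506 counts in an Ishikawa library. It held 7.62 and 10.6 CPM at 0 h, 7.12 and 8.23 CPM at 2 h, 6.51 and 7.27 CPM at 4 h, and 6.30 and 5.51 CPM at 8 h. The late libraries were all below both 0-h libraries, as for 21.6% of all genes. But the 0-h replicates differed from each other by more than the lower of them differed from any late library. The late log2 fold change was -0.51 (SE 0.14, edgeR quasi-likelihood test, adjusted p = 0.0132). ANO8, the membrane-contact protein, held 20.6 and 23.9 CPM at 0 h, 20.8 and 19.6 CPM at 2 h, 17.3 and 20.6 CPM at 4 h, and 16.8 and 15.9 CPM at 8 h. The higher 4-h library was level with the lower 0-h library, and the other 3 late libraries were below both. The late log2 fold change of ANO8 was -0.33 (SE 0.09, edgeR quasi-likelihood test, adjusted p = 0.0147). Both calls rested on 0-h replicate 2: without it the change was -0.25 for ANO9 (edgeR adjusted p = 0.346) and -0.22 for ANO8 (edgeR adjusted p = 0.242), in a fit that assumes the remaining 0-h library varies like the other groups, and of the 6 paralogs only ANO6 then passed.

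Among markers of other cells, COL1A1 and VWF were also lower late. COL1A2 was not, with means of 0.570 CPM at 0 h and 0.859 CPM late. The 6 markers of immune, stromal and endothelial cells (PTPRC, CD3E, COL1A1, COL1A2, PECAM1, VWF) summed to 255 to 278 CPM at 0 h and to 156 to 204 CPM in the late Ishikawa libraries, and nearly all of that sum was COL1A1, at 150 to 269 CPM. The defining immune markers were at or near 0, with no count of CD3E and at most 6 counts of PTPRC in any Ishikawa library, and only COL1A1 and VWF were above 1 CPM in every one. Markers of the line itself changed late as well. The 4 endometrial markers summed to 415 to 458 CPM at 0 h and 338 to 359 CPM late. PAX8 was lower (means of 295 and 197 CPM), EMX2 was higher, and SOX17 and HOXA11 overlapped 0 h. The 4 epithelial markers summed to 2683 to 2706 CPM at 0 h and 2374 to 2619 CPM late. KRT8 and KRT18 were lower, CDH1 was higher, and EPCAM overlapped 0 h. The part of all these markers in the falls of ANO6, ANO8 and ANO9 was not tested.

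ANO5, the muscle-associated member, lay between 18.9 and 26.4 CPM over the Ishikawa libraries, and its late log2 fold change of 0.19 (SE 0.08) did not pass (edgeR quasi-likelihood test, adjusted p = 0.105). Without 0-h replicate 1 it was 0.35 and passed (edgeR adjusted p = 0.0116). ANO10, the ataxia gene and the second most abundant member, stayed between 47.8 and 53.5 CPM, with a late log2 fold change of -0.00 (SE 0.06, edgeR adjusted p = 0.978). ANO7, the prostate gene, lay between 3.46 and 5.47 CPM, and its late log2 fold change was -0.23 (SE 0.14, edgeR adjusted p = 0.275). Of the family genes outside the 7, ANO2 lay between 1.45 and 1.83 CPM with a late log2 fold change of 0.15 (SE 0.20, edgeR adjusted p = 0.616), and ANO3 and ANO4 had 0 to 2 counts per library, too few to be tested.

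In T-47D cells 1 of the 7 genes, ANO6, passed late and was lower, where 30.4% of 15594 genes passed and 14.9% passed in the lower direction. ANO6 held 321 and 340 CPM at 0 h, 317 and 304 CPM at 2 h, 280 and 281 CPM at 4 h, and 233 and 261 CPM at 8 h. All late libraries were below both 0-h libraries, as for 21.2% of all genes. They were also below both 2-h libraries, and both 8-h libraries were below both 4-h libraries. For these separations no share of all genes was counted. The late mean was 264 ± 22.6 CPM (SD, n = 4) against 331 ± 13.1 CPM (SD, n = 2), a log2 fold change of -0.33 (SE 0.04, edgeR quasi-likelihood test, adjusted p = 1.33e-05). The call was kept with each library left out, with values from -0.37 to -0.28, and under every other alternative run. Some markers changed late too. The 6 markers of other cells summed to 87.0 to 92.7 CPM at 0 h and 72.1 to 85.9 CPM late, nearly all COL1A1. The 4 epithelial markers summed to 6575 to 6882 CPM at 0 h and 8216 to 8729 CPM late. That rise was in KRT8 and KRT18, while CDH1 was lower late (means of 1279 and 1126 CPM) and EPCAM overlapped 0 h. The part of these markers in the fall of ANO6 was not tested. The 8-h level did not differ from the 4-h level by a change that passed (-0.18, SE 0.05, edgeR adjusted p = 0.0655).

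The other 6 genes did not pass late in T-47D cells. ANO8 held 26.1 and 27.1 CPM at 0 h and 22.3 to 24.7 CPM in the 4 late libraries, all below 0 h, as for 21.2% of all genes, and its late log2 fold change of -0.17 (SE 0.07) did not pass (edgeR quasi-likelihood test, adjusted p = 0.0699), although it did without 8-h replicate 1 (-0.20, edgeR adjusted p = 0.042). ANO10 held 145 and 142 CPM at 0 h and 136 to 139 CPM late, again all below 0 h, with a late log2 fold change of -0.07 (SE 0.04, edgeR adjusted p = 0.183). ANO7 was near the limit of detection, with 23 to 62 counts per library, and its 4 late libraries were all above 0 h, as for 21.7% of all genes, yet the late log2 fold change of 0.52 had an SE of 0.31 and did not pass (edgeR adjusted p = 0.232). ANO5 (23.3 to 27.5 CPM) and ANO9 (5.76 to 7.82 CPM) had late log2 fold changes of -0.01 (SE 0.07) and -0.03 (SE 0.12). ANO2 (3.94 to 5.72 CPM) and ANO3 (14 to 34 counts) did not pass either, and ANO4 had 0 to 2 counts. At 2 h, 0 of the 7 passed by edgeR (0 at an unadjusted p under 0.05, and 0 by DESeq2), where 9.30% of all genes did.

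**Figure D2:**
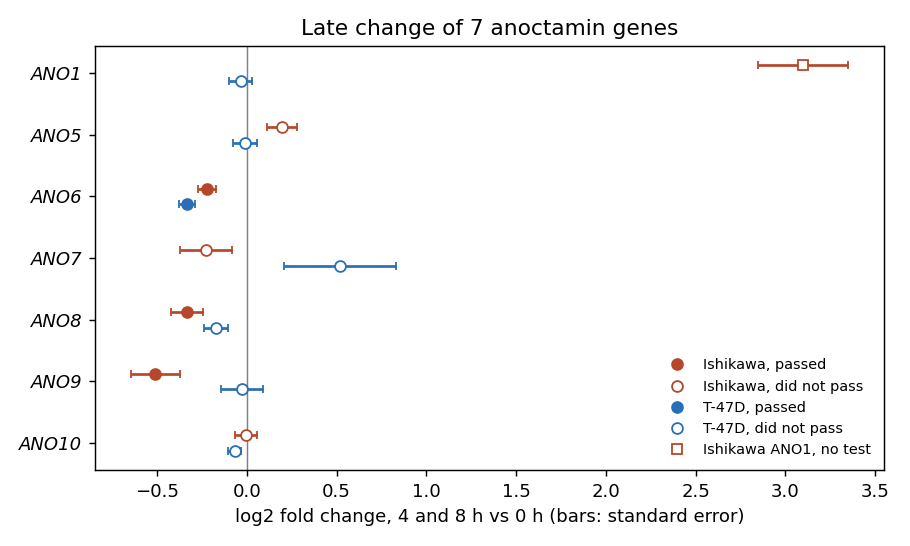
Late log2 fold change (mean of 4 h and 8 h against 0 h, horizontal axis) of the 7 genes in Ishikawa (red) and T-47D (blue) cells, with standard errors as bars, filled points for genes that passed, open points for those that did not, and a square for ANO1 in Ishikawa cells, which was not tested. ANO1 stands at 3.10 in Ishikawa cells and at -0.03 in T-47D cells, and every filled point lies below 0.

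A call in 1 line and not in the other does not show that the lines differ, so the difference itself was tested in 1 fit of all 16 libraries. The late change passed as different between lines for 0 of the 6 paralogs by edgeR (2 at an unadjusted p under 0.05, and 0 by DESeq2), where 10.2% of 17090 genes passed. The late change in T-47D minus that in Ishikawa cells was 0.49 for ANO9 (SE 0.19, edgeR quasi-likelihood test, adjusted p = 0.13) and 0.75 for ANO7 (SE 0.32, edgeR adjusted p = 0.158). For ANO6, lower late in both lines, it was -0.11 (SE 0.07, edgeR adjusted p = 0.422). Without Ishikawa 0-h replicate 1, ANO9 (0.69, edgeR adjusted p = 0.0235) and ANO5 (-0.37, edgeR adjusted p = 0.0377) passed.

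Without E2 all 6 paralogs were detected in both lines, at different levels. All 6 passed at 0 h, but 81.9% of all genes did too, so the count says little about the family, and cell line, culture and handling cannot be told apart in this comparison. ANO10 was higher in T-47D cells, at 145 and 142 CPM against 53.0 and 48.3 CPM (edgeR quasi-likelihood test, adjusted p = 6.5e-16), and ANO7 was lower there by a log2 difference of -2.84 (SE 0.26, edgeR adjusted p = 2.52e-09). ANO6 was lower in T-47D cells by a log2 difference of -0.33 (SE 0.06, edgeR adjusted p = 2.26e-05). ANO5 (0.29, edgeR adjusted p = 0.00719), ANO8 (0.26, edgeR adjusted p = 0.0206) and ANO9 (-0.47, edgeR adjusted p = 0.0109) differed less, and each of these calls turned on single 0-h libraries. Without Ishikawa replicate 2 the difference was 0.15 for ANO5 (edgeR adjusted p = 0.157) and -0.21 for ANO9 (edgeR adjusted p = 0.273), and without Ishikawa replicate 1 it was 0.17 for ANO8 (edgeR adjusted p = 0.176). Without T-47D replicate 1 it was 0.22 for ANO5 (edgeR adjusted p = 0.0825) and -0.33 for ANO9 (edgeR adjusted p = 0.122), and without T-47D replicate 2 it was 0.23 for ANO8 (edgeR adjusted p = 0.0904). ANO2, outside the 7, was higher in T-47D cells by 1.68 (SE 0.19, edgeR adjusted p = 9.88e-08).

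Per kilobase of exon, ANO6 led the family at 0 h in both lines, with 47.3 CPM per kb in the Ishikawa line and 37.5 in T-47D cells. In Ishikawa cells it was followed by ANO10 (9.59 CPM per kb), ANO8 (4.45), ANO9 (1.47), ANO5 (1.08), ANO1 (0.92), ANO7 (0.776) and ANO2 (0.261). Neighbours from ANO9 to ANO7 in this order were close, with ranges over 2 libraries of 1.23 to 1.70 for ANO9, 0.969 to 1.19 for ANO5, 0.903 to 0.937 for ANO1 and 0.683 to 0.870 for ANO7, and with 2 libraries these gaps were not tested. In T-47D cells the order was ANO6, ANO10 (27.1 CPM per kb), ANO8 (5.31), ANO1 (3.78), ANO5 (1.32), ANO9 (1.06), ANO2 (0.835), ANO7 (0.109) and ANO3 (0.0902), and only the ranges of ANO7 and ANO3 overlapped between neighbours. The same order held in both lines with the length of the canonical transcript in place of all exons. After E2, ANO1 in Ishikawa cells reached 7.89 ± 2.57 CPM per kb (SD, n = 4) and moved by its mean from the sixth to the third place, behind ANO6 (40.5) and ANO10 (9.55). The late ranges of ANO1 (5.62 to 10.2) and ANO10 (9.04 to 10.02) overlapped. Its share of the summed family level per kb went from 1.40% to 12.2% in Ishikawa cells and from 4.90% to 5.47% in T-47D cells. In T-47D cells ANO1 itself did not rise, at 3.78 CPM per kb at 0 h and 3.70 late, while ANO6 went from 37.5 to 29.9.

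**Figure D3:**
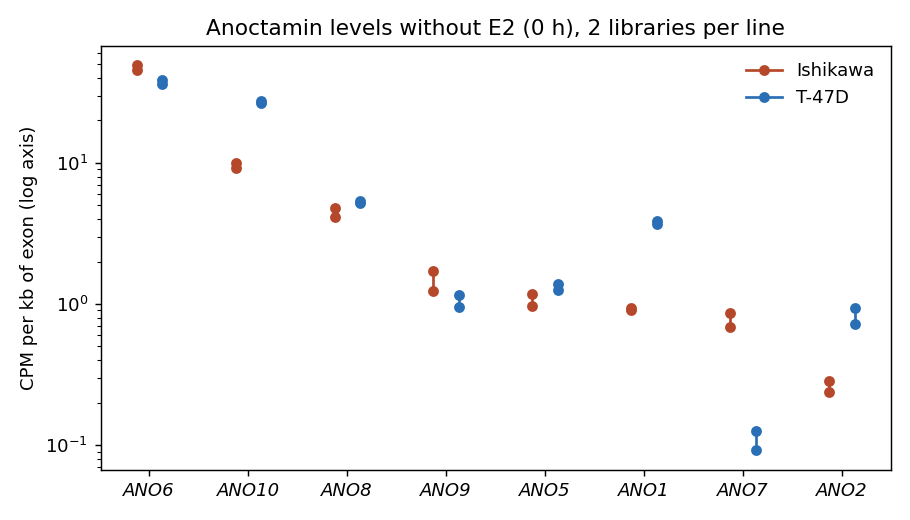
Level at 0 h in CPM per kb of exon (log axis) of 8 anoctamin genes in Ishikawa (red) and T-47D (blue) cells, with 1 point per library and a line joining the 2 libraries. ANO6 is highest in both lines, ANO10 and ANO1 are higher in T-47D cells (27.1 against 9.59 and 3.78 against 0.92 CPM per kb), and ANO7 is lower there (0.109 against 0.776).

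The genes whose pattern was most like that of ANO1 over the 8 Ishikawa libraries were sought among 509 genes whose counts averaged 100 or more and whose log2 CPM spanned 1 unit or more. The highest Pearson correlations of log2 CPM with ANO1 were those of SLCO2A1 (0.998), a prostaglandin transporter, TLL2 (0.996), a secreted metalloprotease, and SLC7A2 (0.995), a cationic amino acid transporter. They were followed by GREB1 (0.991), an estrogen-induced gene, GDPD5 (0.990), a phosphodiesterase, CA2 (0.989), a carbonic anhydrase, DEPTOR (0.988), an MTOR-binding protein, and DEGS2 (0.987), a sphingolipid enzyme. The 8 points share 4 treatment times, and any gene that responds to E2 in steps scores high, so these values are a description. The choice over these same libraries also favours genes that share the high and low late pairs of ANO1, so that sharing is no separate result. SLCO2A1, for one, held 87.5 and 90.7 CPM in 4-h replicate 1 and 8-h replicate 2, where ANO1 was high. It held 61.7 and 57.9 CPM in 4-h replicate 2 and 8-h replicate 1. By Spearman correlation, 3 of these 8 were among the first 8.

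These genes did not all share the flat pattern of ANO1 in T-47D cells, where 30.4% of all genes passed late. Late in T-47D cells SLCO2A1 fell, with a log2 fold change of -1.14 (SE 0.12, edgeR quasi-likelihood test, adjusted p = 1.02e-06). GREB1 rose by 2.08 (SE 0.05, edgeR adjusted p = 1.61e-15) and DEPTOR by 0.60 (SE 0.07, edgeR adjusted p = 2.2e-06). SLC7A2 (0.02, SE 0.09) and DEGS2 (-0.01, SE 0.05) changed as little as ANO1 and did not pass. GDPD5 (-0.30, SE 0.12) and TLL2 (-0.34, SE 0.42) did not pass either, and TLL2 was at only 0.217 to 0.470 CPM in T-47D cells. CA2, at most 0.0397 CPM in T-47D cells, was not tested. Among the paralogs, the correlation with ANO1 over the Ishikawa libraries was -0.897 for ANO6, -0.823 for ANO8, -0.809 for ANO9, 0.579 for ANO5, -0.361 for ANO7 and -0.222 for ANO10.

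**Figure D4:**
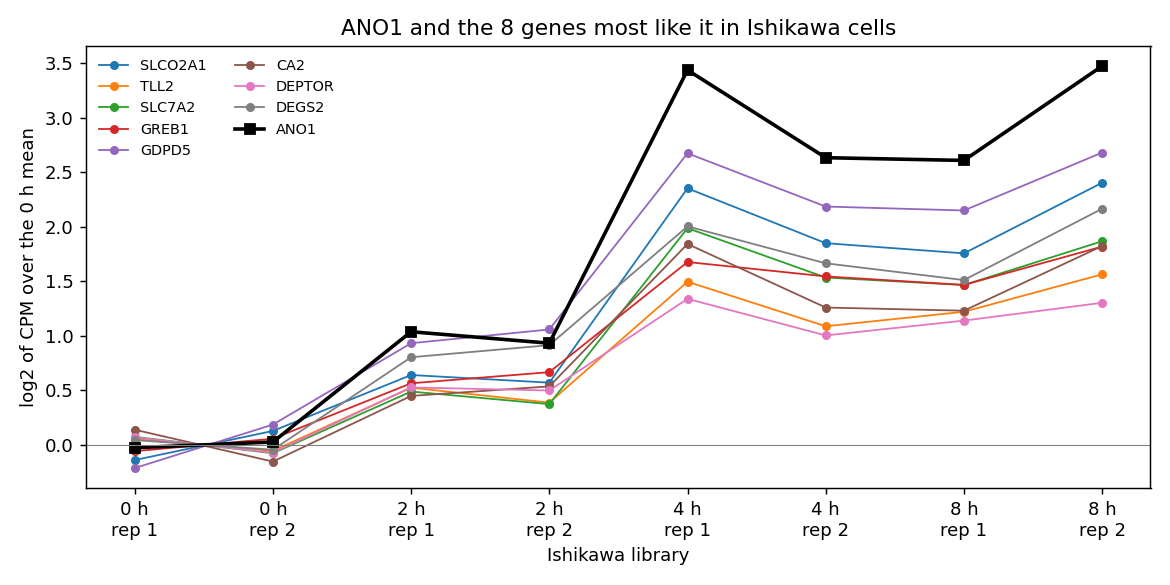
log2 of CPM over the 0-h mean (vertical axis) in each of the 8 Ishikawa libraries for ANO1 (black squares) and the 8 genes with the highest Pearson correlation with it (coloured circles); lines join libraries of 1 gene. All 9 genes are higher in 4-h replicate 1 and 8-h replicate 2 than in the other 2 late libraries. The choice by correlation over these same libraries favours genes with that pattern.

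Genes around ANO1 on chromosome 11 were compared to see whether they rose with it. Of 11 listed neighbours 9 were tested in Ishikawa cells, and late 3 were higher and 0 lower, with a median log2 fold change of 0.07. Of all 15787 genes tested, 25.1% passed late and 2083 passed as higher. FGF19, a growth factor gene 313.2 kb from ANO1, rose by 2.34 (SE 0.21, edgeR quasi-likelihood test, adjusted p = 1.4e-06). It held 0.596 and 0.710 CPM at 0 h, 3.19 and 4.01 CPM at 2 h, and 3.23 to 3.53 CPM in the late libraries, so that FGF19 was as high at 2 h as late, where ANO1 was not. CCND1, the cyclin D1 gene, rose by 0.35 (edgeR adjusted p = 6.35e-05), and FADD, the nearest neighbour at 13.8 kb, a death-receptor adaptor, rose by 0.24 (edgeR adjusted p = 0.0116). In T-47D cells 8 were tested, where 30.4% of all genes passed late. CCND1 was higher (0.31, edgeR adjusted p = 2.48e-05), SHANK2 was lower (-0.20, edgeR adjusted p = 0.00139), and FGF19 had 0 to 2 counts. CCND1, FADD and SHANK2 were named after their values were seen.

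**Figure D5:**
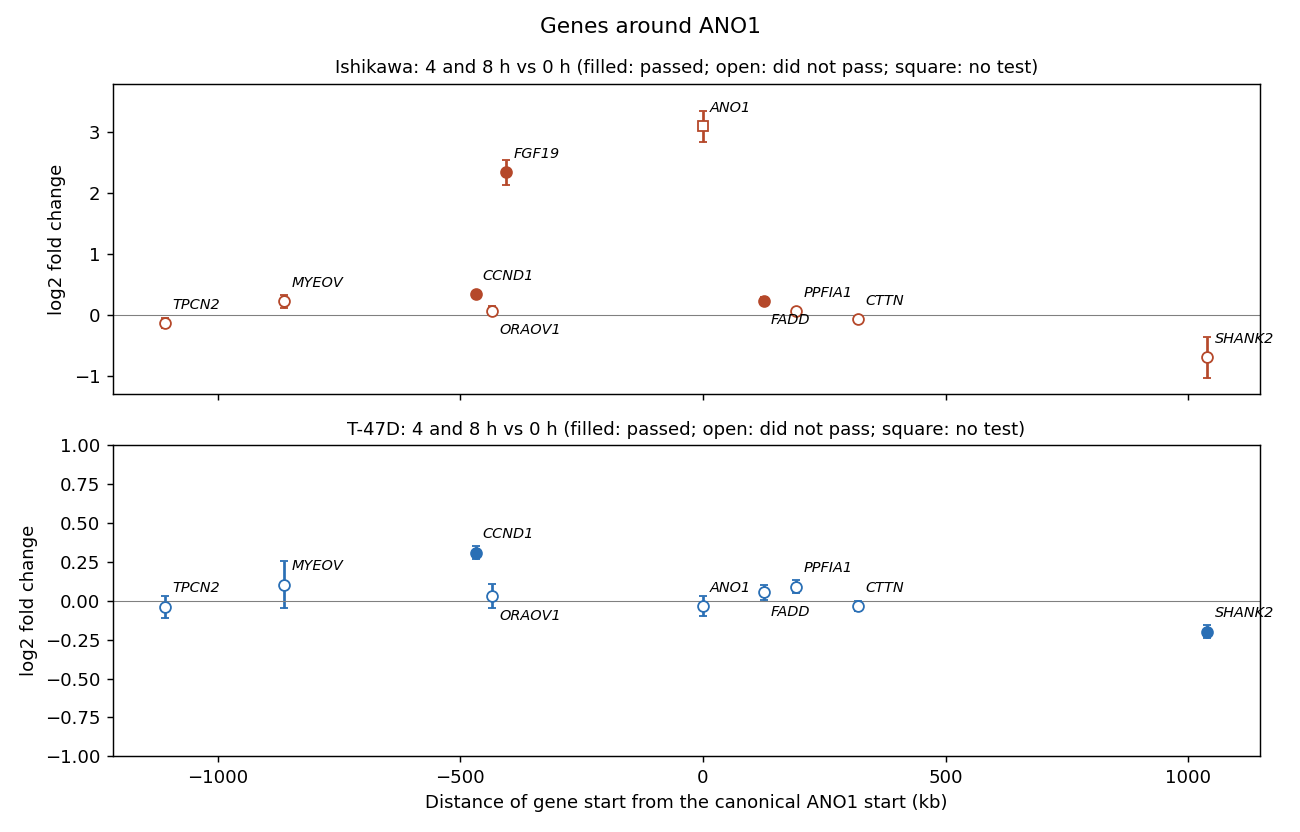
Late log2 fold change with standard error (vertical axis) of ANO1 and its tested neighbours against the distance of each gene start from the canonical ANO1 start in kb, in Ishikawa (upper) and T-47D (lower) cells; filled points passed, open points did not, and the square, ANO1 in Ishikawa cells, was not tested. In Ishikawa cells ANO1 (3.10) and FGF19 (2.34) stand apart from the other neighbours, and in T-47D cells the changes lie between -0.20 and 0.31.

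The TMC and TMEM63 genes, distant relatives of the anoctamins that form ion channels, were lower or did not pass. Of 11 listed, 9 were tested in each line, and late 4 were lower and 0 higher in Ishikawa cells (median log2 fold change -0.33) and 6 lower and 0 higher in T-47D cells (median -0.26), against medians of -0.00 for all genes in both lines. Of all genes tested late, 11.9% passed as lower in the Ishikawa line and 14.9% did in T-47D. TMC5 fell in T-47D cells by a log2 fold change of -0.82 (SE 0.20, edgeR quasi-likelihood test, adjusted p = 0.00395), from 2.15 and 2.62 CPM at 0 h to 1.17 to 1.70 CPM late, and lost the call without 0-h replicate 2 (-0.66, edgeR adjusted p = 0.0762).

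Other chloride channels showed no common direction: 4 rose and 3 fell late of 20 tested in Ishikawa cells (median log2 fold change -0.05), and 4 rose and 3 fell of 19 tested in T-47D cells (median -0.01), where 25.1% and 30.4% of all genes passed. LRRC8C, a subunit of volume-regulated anion channels, changed most, at 0.96 in T-47D cells (SE 0.31, edgeR quasi-likelihood test, adjusted p = 0.0274), where it had 18 to 67 counts per library. That call was lost by DESeq2 (adjusted p = 0.0638), with 4 h and 8 h as 1 group (edgeR adjusted p = 0.0536), without 0-h replicate 1 (0.67, edgeR adjusted p = 0.22) and without 4-h replicate 2 (0.83, edgeR adjusted p = 0.0738). Genes that scramble or flip phospholipids, the other activity of the family, were 3 higher and 2 lower of 20 in Ishikawa cells (median -0.05) and 5 higher and 3 lower of 20 in T-47D cells (median 0.00), beside the same 25.1% and 30.4% of all genes.

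Genes that supply calcium signals or chloride to such channels were 4 higher and 3 lower of 18 tested late in Ishikawa cells (median log2 fold change 0.02) and 1 higher and 5 lower of 17 in T-47D cells (median -0.06), where 25.1% and 30.4% of all genes passed. P2RY2 and SLC12A2 of this list were named after their values were seen. P2RY2, a receptor for extracellular ATP and UTP that raises cytosolic calcium, peaked at 2 h in Ishikawa cells, with 19.3 and 21.3 CPM at 0 h, 57.0 and 57.7 CPM at 2 h, 25.8 and 39.0 CPM at 4 h, and 36.8 and 23.3 CPM at 8 h. Its rise at 2 h was 1.51 (SE 0.18, edgeR quasi-likelihood test, adjusted p = 5.82e-05). Among the late libraries it was low in the pair in which ANO1 was high. SLC12A2, the sodium-potassium-chloride cotransporter that loads secretory cells with chloride, went from 66.7 and 65.2 CPM at 0 h to 70.6 to 81.5 CPM late in Ishikawa cells and from 55.6 and 54.3 CPM to 40.2 to 48.9 CPM in T-47D cells. The late libraries were all above 0 h in Ishikawa cells, as for 20.7% of all genes, and all below it in T-47D cells, as for 21.2%. The rise in Ishikawa cells was 0.18 (SE 0.06, edgeR adjusted p = 0.0375), and the fall in T-47D cells was -0.29 (SE 0.06, edgeR adjusted p = 0.000634). The Ishikawa call was lost in 8 of the alternatives run.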

How the data were processed

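The authors prepared poly(A) directional libraries, aligned reads to hg19 with HISAT2, used SAMtools, and counted reads per UCSC Known Genes gene with featureCounts, per the labels and the study's methods. Strand, pairing and multimapper settings and tool versions are not given in the sources used here. The deposited values are raw counts, with no normalization. Between 71.2% and 74.6% of counts from 1 to 10 in a library were even numbers, so a count need not be an independent molecule.

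Counts were tested with edgeR 4.0.16 in R 4.3.3 (filterByExpr with a minimum count of 10, TMM scaling, glmQLFit and glmQLFTest, time as a factor with no replicate block), with Benjamini-Hochberg adjustment over all genes kept (15787 in Ishikawa, 15594 in T-47D and 17090 in the joint fit) and a threshold of 0.05. The SE of a log2 fold change is its size over the square root of F. CPM use TMM-scaled totals, and correlations use log2 CPM with a prior count of 2. Lengths, positions and starts come from GENCODE v44 lifted to GRCh37, in which 85.3% of the table symbols were found. Alternatives were DESeq2 1.42.0, RLE scaling, no count filter or at least 10 counts in every library, thresholds of 0.01 and 0.1, a replicate block, only the times compared, 4 h and 8 h as 1 group, Spearman correlation, and each library left out in turn. The pipeline was tested on simulated data.

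The members and lists were chosen with earlier results of these data known. Named were the 7 members, ANO2, ANO3 and ANO4, the 8 genes most correlated with ANO1, and genes of the other lists that passed late with an absolute log2 fold change of at least 0.8 (at most 4 per list). Same-numbered replicates did not deviate together (correlations between -0.114 and 0.0596), and no 2 libraries held identical values. Some upstream windows are not reported here.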

Additional observations from a re-analysis of the deposited data

Results flagged for a closer look

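The interaction of line and time was tested in 1 edgeR fit of all 16 libraries with adjustment over 17090 genes. By it, the response to E2 differed between the lines for 5 of the genes named outside the anoctamin family. Of all 17090 genes, 457 passed at 2 h and 10.2% passed late. For P2RY2, the purinergic receptor, the change in T-47D minus that in Ishikawa cells was -1.10 at 2 h (edgeR adjusted p = 0.00325) and -0.88 late (edgeR adjusted p = 0.00345). P2RY2 was 95.7 and 96.1 CPM at 0 h, 123 and 130 CPM at 2 h and 71.1 to 89.2 CPM late in T-47D cells. For SLC12A2, the chloride-loading cotransporter, the late difference was -0.46 (edgeR adjusted p = 0.000731) and passed in every alternative run. For TMC5 the late difference was -0.79 (edgeR adjusted p = 0.00685), and without T-47D 0-h replicate 2 it was -0.64 and did not pass (edgeR adjusted p = 0.081). For the E2 targets, the difference was 1.17 at 2 h (edgeR adjusted p = 5.05e-06) and 0.45 late (edgeR adjusted p = 0.0106) for GREB1, and -1.56 at 2 h (edgeR adjusted p = 1.83e-05) and -2.67 late (edgeR adjusted p = 4.89e-10) for PGR. The late difference of GREB1 did not pass without Ishikawa 0-h replicate 2 (0.39, edgeR adjusted p = 0.0915) or T-47D 0-h replicate 1 (0.39, edgeR adjusted p = 0.0672). P2RY2 and SLC12A2 were picked for their values. TMC5 was named for its late change in T-47D cells, which its late difference between lines uses again. No sample group was large enough to look for single libraries far from the rest.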

How the results depend on the processing

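The number of paralogs called late in Ishikawa cells was 3, and was 1 at an adjusted p under 0.01 and 1 to 3 with 1 library left out. The number of genes called late in T-47D cells was 1, and was 2 at an adjusted p under 0.1 and 1 to 2 with 1 library left out. The number of paralogs whose late change differed between lines was 0, and 0 to 2 with 1 library left out. The 3 paralogs called at 8 h alone in Ishikawa cells were 1 at an adjusted p under 0.01 and 5 under 0.1. The counts at 2 h and at 0 h between lines stayed within 1.5 times their value. Values near 0 changed sign. By DESeq2 the late change of ANO10 in Ishikawa cells was 0.000576, with no filter that of ANO5 in T-47D cells was 0.000672, and with the replicate block that of ANO7 at 2 h in T-47D cells was -0.00397; the cause was not tested. With 1 library left out, signs turned at 2 h in Ishikawa cells for ANO5 (-0.0442 to 0.24), ANO6 (-0.0207 to 0.0944), ANO7 (-0.346 to 0.0113), ANO9 (-0.454 to 0.0268) and ANO10 (-0.0100 to 0.114), late in Ishikawa cells for ANO10 (-0.0618 to 0.0617) and TMC5 (-0.0713 to 0.0262), at 2 h in T-47D cells for ANO2 (-0.361 to 0.0638), ANO5 (-0.0745 to 0.0586) and ANO7 (-0.47 to 0.388), late in T-47D cells for ANO1 (-0.0633 to 0.00661), ANO2 (-0.334 to 0.0438), ANO5 (-0.0666 to 0.0666) and ANO9 (-0.155 to 0.126), and for the late difference between lines of ANO10 (-0.147 to 0.00351). With the replicate number as a block, the numbers of members called were 3 and 1 late, 0 at 2 h and 0 for the difference between lines, as without it; the block cost ANO9 its 0-h difference between lines (-0.37, edgeR adjusted p = 0.0695) and SLC12A2 its late rise in Ishikawa cells (edgeR adjusted p = 0.0502). Of 624 values of single genes under alternatives that kept all libraries, 613 kept their direction and side of the threshold, as did 898 of 960 with 1 library left out. Depth limits ANO3, ANO4 and ANO7 in T-47D cells, where counts are few.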
